A study of Mus musculus with 12 samples.

Results

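The serpins described here are 9 genes of protease inhibitors: Serpina3f, Serpina3g, Serpinb1a, Serpinb6a, Serpinb6b, Serpinb9, Serpinb9b, Serpinc1 and Serpine2. They were picked by name, either because the protein guards a cell against granzymes or cathepsins or because the transcript changed strongly between the groups. The choice used the same libraries and the same comparisons. The members' differences between groups are therefore given as a description, with fold changes and standard errors (SE), and no test is read from them. Where a serpin is said to pass or lose the threshold used for all genes, this describes the setting only and is not read as support. The files list 55450 genes, of which 13636 passed the filter on low counts, and all 9 serpins were among them. A further 54 serpin genes are in the files.

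Serpins are proteins of one fold that trap a protease. The protease cuts an exposed loop of the serpin, the serpin snaps into a more stable shape, and the enzyme is left bound and inactive. Cytotoxic CD8 T cells make granzymes, the proteases of their killing granules, together with cathepsins, and serpins in the cytosol and nucleus are known to limit what these enzymes do when they leak from granules or lysosomes. Clade B serpins stay mostly inside the cell, whereas antithrombin and protease nexin-1 are secreted.

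The libraries hold RNA of pmel-1 mouse CD8 T cells, which carry a transgenic receptor for a peptide of the melanocyte protein Pmel. All 12 libraries are labelled wild type for Ucp2, the mitochondrial carrier that genipin, a plant compound, is used to inhibit. Cells of all 4 groups were activated either with the hgp100 peptide at 1 μM or with anti-CD3 at 2 μg/ml and anti-CD28 at 1 μg/ml, then grown with IL-2 at 10 ng/ml for 4 days. The labels do not say which activation each library had. The groups, of 3 libraries each, received vehicle (culture medium), genipin, genipin with NAC, or NAC alone; NAC is the usual short name of N-acetylcysteine, an antioxidant and cysteine source. Doses are not given per sample in the labels, which also do not say whether replicates are separate mice or cultures, so each p-value below covers no more than the spread among these libraries, and that spread may be technical. Groups were compared in 5 pairs, and the interaction takes the genipin difference measured without NAC from that measured with NAC.

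Totals ran from 20838894 to 31098648 expected counts per library. Transcripts of the 7 T cell and CD8 markers were high in every library, at 3066 to 3972 TPM (a level scaled by transcript length and library) summed. The 4 hepatocyte markers had at most 1 count in any library, with Apoa1, Ttr and Fgb at 0 throughout, and the 6 neutrophil markers at most 15 counts, with S100a8 and Elane at 0. NK markers (Ncr1, Klrb1c and Fcer1g, 3 of 3 detected) moved with the groups, summing to 82.9 to 88.9 TPM with vehicle, 213 to 236 with genipin, 40.5 to 41.7 with genipin+NAC and 18.1 to 19.5 with NAC. Fcer1g held most of that sum, at 81.4 to 87.2 TPM with vehicle and 36.8 to 37.8 with genipin+NAC. Klrb1c went the other way between those groups, at 1.38 to 1.62 and 2.84 to 3.65 TPM, and Ncr1 had at most 4 counts in either. All 3 genes were highest with genipin. Mast cell and basophil markers also moved, summing to 18.9 to 22.6 TPM with vehicle or NAC, 49.4 to 53.7 with genipin and 76.3 to 82.97 with genipin+NAC, but the genes of this list went different ways. Mcpt8 was at 11.4 to 11.7 TPM with vehicle, 25 to 32.6 with genipin, 1.84 to 3.11 with genipin+NAC and 0.53 to 0.96 with NAC, whereas Kit was at 3.24 to 3.78, 8.44 to 10.3, 59.6 to 63.9 and 14.4 to 15.3 TPM in that order. Whether either set of transcripts bears on the serpins was not tested, and in bulk RNA fewer cells of a type and less RNA per cell cannot be told apart. The library genipin+NAC replicate 1 stood apart from its group, with a chi-square per degree of freedom of 6.77 and 7.75 against its 2 partners, where the other 10 within-group pairs gave 2.08 to 2.89. Leaving it out moved no serpin's log2 fold change by more than 0.13.

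Serpina3g and its relative Serpina3f lie side by side on chromosome 12, and their promoters are shown because both genes were highest with genipin and above vehicle in every treated group. Serpina3f (ENSMUSG00000066363.12) is at chr12:104214544-104221129 and Serpina3g (ENSMUSG00000041481.16) at chr12:104236245-104241939 on mm10, both protein coding, both on the plus strand and 15.1 kb apart. The windows below run from 250 bases before to 50 bases after the RefSeq start (GRCm38.p6, plus strand), at chr12:104214294-104214593 for Serpina3f and chr12:104235897-104236196 for Serpina3g. Capitals mark matches to the interferon-gamma activation site TTCNNNGAA and, in Serpina3g, first to a pattern for NF-kB.
Serpina3f: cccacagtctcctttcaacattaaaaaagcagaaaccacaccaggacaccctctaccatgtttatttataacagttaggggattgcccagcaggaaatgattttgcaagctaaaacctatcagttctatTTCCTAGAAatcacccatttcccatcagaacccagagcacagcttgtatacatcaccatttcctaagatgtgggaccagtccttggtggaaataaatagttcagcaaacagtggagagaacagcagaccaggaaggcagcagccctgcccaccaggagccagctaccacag
Serpina3g: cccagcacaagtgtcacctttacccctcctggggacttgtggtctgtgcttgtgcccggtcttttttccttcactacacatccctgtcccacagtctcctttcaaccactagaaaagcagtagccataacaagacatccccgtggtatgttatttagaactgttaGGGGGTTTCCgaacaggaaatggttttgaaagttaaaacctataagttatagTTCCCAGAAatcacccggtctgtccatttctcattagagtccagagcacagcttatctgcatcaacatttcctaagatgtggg
The TTCNNNGAA match began 121 bases before the RefSeq start of Serpina3f and 33 bases before that of Serpina3g. The NF-kB match began 85 bases before the RefSeq start of Serpina3g. That start lies before the GENCODE gene, whereas the RefSeq start of Serpina3f is also the GENCODE start. The 121 and 33 bases are therefore not measured from like points. In all, 8.3% of the 32851 RefSeq promoter windows of this length hold TTCNNNGAA and 8.46% the NF-kB pattern, so a match is common and is a description of the letters only. The letters that open the Serpina3f window recur further inside the Serpina3g window, so the 2 windows are offset. Aligned bases were identical between them for 56.3% of the 300-base length, which counts the ends left unmatched by the offset. The likeness of the shared stretch alone was not measured. In the same alignment, windows of other pairs of different serpins gave 41.7% to 54.0%, apart from 62.3% for Serpinb9 with Serpinb9b. RefSeq gives Serpina3f a further start, with a window at chr12:104214383-104214682, where the same match begins 210 bases before the start. This window is offset more from the Serpina3g window, and their identity is 48.7%. Both strands were searched for 6 patterns in the windows of the 8 serpins that have one in the table: these 2, an interferon-stimulated response element, AP-1 (TGANTCA, in 7.81% of all windows), an antioxidant response element (TGACNNNGC, 12.4%) and a hypoxia core (ACGTG, 19.6%). Serpinb6a held TTCNNNGAA at 2 places, one of them overlapping an interferon-stimulated response element, in one window and the antioxidant pattern in its other window. The windows of Serpinb6b, Serpinc1 and Serpine2 held none of the 6.

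Serpina3g, also called Spi2A, inhibits cysteine cathepsins and is known from memory CD8 T cells. Its level in CPM (counts scaled by the library total and its TMM normalization factor) was 6.76, 7.13 and 7.25 in the vehicle libraries, 55.8, 54.0 and 57.6 in those given genipin, 22.3, 19.8 and 20.5 in those given genipin+NAC and 12.5, 11.9 and 11.2 in those given NAC. The 4 groups did not overlap, in the order genipin, genipin+NAC, NAC and vehicle. Genipin against vehicle gave a log2 fold change of 2.98 ± 0.07 (SE), a 7.91-fold difference, and NAC against vehicle one of 0.74 ± 0.08. With NAC present the genipin difference was 0.82 ± 0.07, so the interaction was -2.16 ± 0.10.

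Serpina3f, a close relative of Serpina3g whose target in T cells is not stated here, was a low transcript with the same order of groups. Its CPM were 0.633, 0.542 and 0.786 in the vehicle libraries (13 to 22 counts), 5.18, 6.38 and 5.32 in those given genipin, 3.96, 4.2 and 4.61 in those given genipin+NAC and 2.53, 2.11 and 1.86 in those given NAC. Again no group overlapped another, and every treated library was above every vehicle library. The log2 fold change was 3.08 ± 0.19 for genipin, 1.70 ± 0.22 for NAC and 2.69 ± 0.20 for both, each against vehicle. Between genipin+NAC and genipin the difference was -0.39 ± 0.14, and it was -0.34 without genipin+NAC replicate 1 and -0.30 without genipin replicate 2, values that no longer passed the threshold over all genes. The coding sequences of the pair match at 87.4% of aligned bases, over the 747 bases of Serpina3g and the 1338 bases of Serpina3f, but no stretch of 150 bases is shared exactly with a transcript of another gene, for these or any of the 9 serpins.

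**Figure D1:**
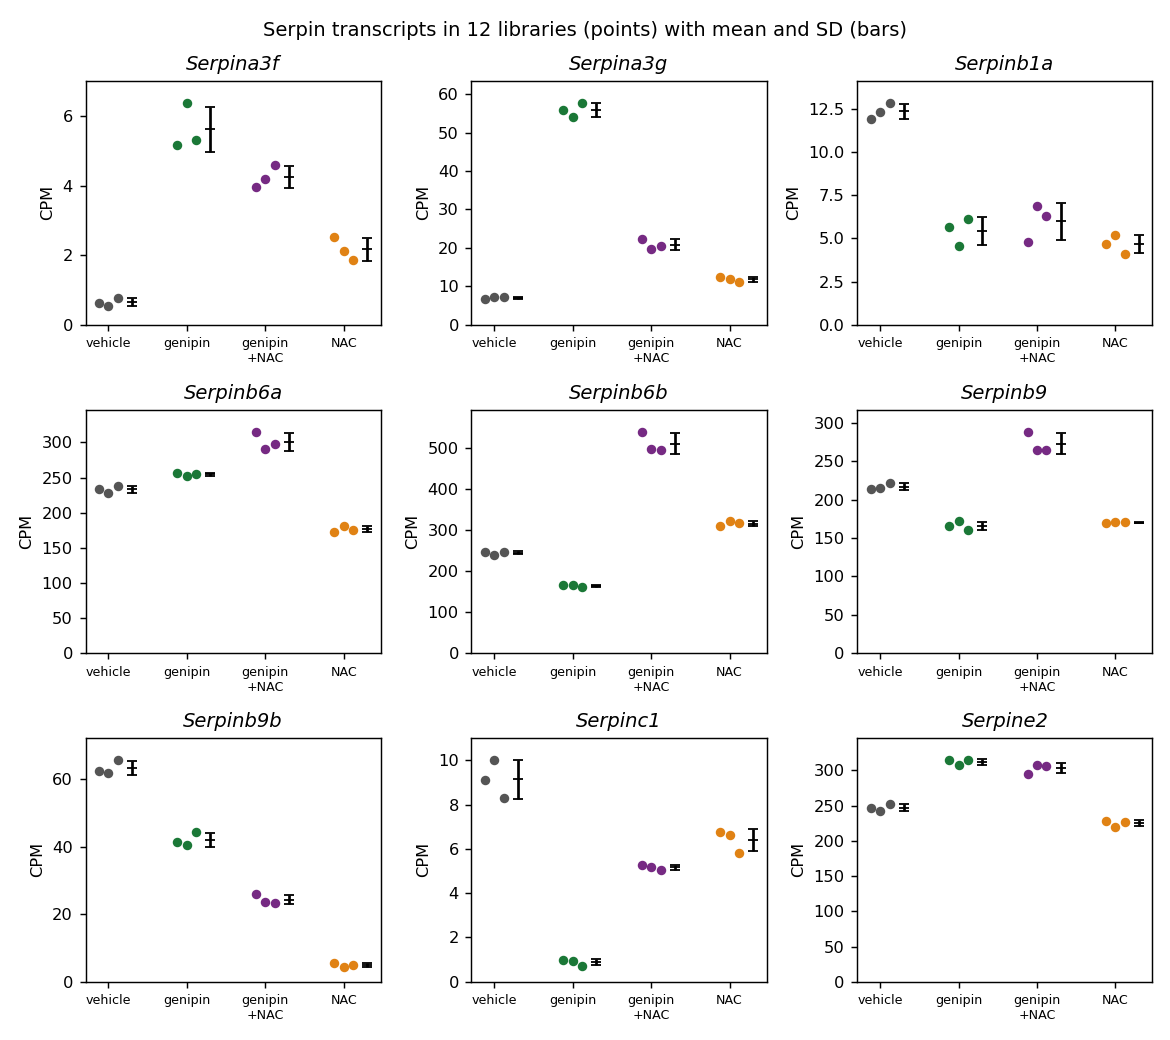
Level of each serpin in CPM (linear axes from 0) in the 3 libraries of each group, as points, with the mean and SD in black. Serpina3g was at 54.0 to 57.6 CPM in the genipin libraries and 6.76 to 7.25 in the vehicle libraries, while Serpinb9b and Serpinc1 were highest with vehicle.

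Serpinb9 inhibits granzyme B and is the serpin best known for keeping cytotoxic lymphocytes from being harmed by their own granules. The gene (ENSMUSG00000045827.10) is at chr13:33003250-33017957 on mm10, on the plus strand, and its close paralogue Serpinb9b (ENSMUSG00000021403.3) follows 9.5 kb further on, at chr13:33027416-33041884. The 2 coding sequences match at 86.5% of aligned bases. Their promoter windows (RefSeq, GRCm38.p6, plus strand) are shown because the neighbours differed in how they responded: chr13:33004291-33004590 for Serpinb9, whose RefSeq start lies inside the GENCODE gene, and chr13:33027164-33027463 for Serpinb9b. Capitals mark a match to the interferon-stimulated response element, read on the minus strand.
Serpinb9: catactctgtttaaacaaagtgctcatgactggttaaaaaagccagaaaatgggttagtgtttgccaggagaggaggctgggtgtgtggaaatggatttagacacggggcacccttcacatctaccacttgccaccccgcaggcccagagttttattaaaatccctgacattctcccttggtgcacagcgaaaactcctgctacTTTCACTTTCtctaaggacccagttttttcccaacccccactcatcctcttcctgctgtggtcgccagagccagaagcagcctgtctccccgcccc
Serpinb9b: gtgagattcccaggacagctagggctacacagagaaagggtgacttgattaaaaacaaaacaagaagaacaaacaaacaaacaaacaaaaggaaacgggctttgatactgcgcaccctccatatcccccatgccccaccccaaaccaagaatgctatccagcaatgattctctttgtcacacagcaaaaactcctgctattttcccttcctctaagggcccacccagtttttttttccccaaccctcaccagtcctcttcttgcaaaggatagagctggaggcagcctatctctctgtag
Aligned bases were identical between the windows for 62.3% of the 300-base length. The match in Serpinb9 began 46 bases before the start, and 3.44% of all windows hold this pattern. None of the 6 patterns was found in the Serpinb9b window, which says only that these letters are not there.

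Serpinb9 stood at 213, 215 and 222 CPM in the vehicle libraries, 165, 172 and 161 in those given genipin, 288, 265 and 264 in those given genipin+NAC and 169, 170.1 and 171 in those given NAC. Each compound alone was lower than vehicle and the 2 together higher, and the genipin and NAC libraries overlapped. Against vehicle the log2 fold change was -0.39 ± 0.04 for genipin, -0.35 ± 0.04 for NAC and 0.33 ± 0.03 for both. Genipin+NAC was 1.64-fold above genipin and 1.60-fold above NAC.

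Serpinb9b had the widest span of any of the 9 serpins, 12.5-fold between its highest and lowest group mean. Its levels were 62.3, 61.7 and 65.6 CPM in the vehicle libraries, 41.3, 40.4 and 44.4 in those given genipin, 26.0, 23.7 and 23.3 in those given genipin+NAC and 5.56, 4.49 and 5.06 in those given NAC. No group overlapped another. The log2 fold change against vehicle was -3.66 ± 0.08 for NAC, -0.59 ± 0.06 for genipin and -1.38 ± 0.06 for both. Adding genipin to NAC went with a difference of 2.28 ± 0.08, of opposite sign to genipin without NAC. The paralogues therefore differed most in the NAC libraries, where Serpinb9 stood at 66.1 ± 0.58 TPM and Serpinb9b at 2.30 ± 0.28 TPM (SD, n = 3), against 73.4 ± 1.48 and 28.0 ± 2.79 TPM with vehicle.

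Serpinb6b, an inhibitor of granzyme A in the mouse, is at chr13:32965209-32979067 (ENSMUSG00000042842.11, plus strand), 24.2 kb before Serpinb9. Its CPM were 248, 240.3 and 247 in the vehicle libraries, 167, 165 and 162 in those given genipin, 539.8, 498 and 494 in those given genipin+NAC and 309, 321 and 316 in those given NAC. It was the highest of the 9 transcripts in the libraries with both compounds, at 338 ± 19.5 TPM (SD, n = 3), and the groups did not overlap. Genipin was 0.57 ± 0.03 below vehicle on the log2 scale, whereas genipin added to NAC was 0.69 ± 0.03 above NAC. Genipin+NAC was 3.10-fold above genipin.

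Serpinb6a, an inhibitor of cathepsin G and other trypsin-like and chymotrypsin-like proteases, lies on the minus strand at chr13:33917918-34002794 (ENSMUSG00000060147.15), 876.0 kb beyond Serpinb9b. Its CPM were 234, 228 and 238 in the vehicle libraries, 257, 252 and 255 in those given genipin, 315, 290.2 and 297 in those given genipin+NAC and 173, 181 and 176 in those given NAC. The groups were separate but close, the highest mean being 1.70 times the lowest. The log2 fold change against vehicle was 0.13 ± 0.03 for genipin, -0.40 ± 0.03 for NAC and 0.37 ± 0.03 for both. Its gene overlaps Nqo2, Ripk1 and 1110046J04Rik on the other strand. The library kit keeps strand, but how strand was set in counting is not given in the sources used here, so reads of overlapping genes cannot be told apart with certainty. Ripk1 moved by 0.17 ± 0.04 with genipin (edgeR adjusted p = 0.00193) and by -0.18 ± 0.04 with NAC (edgeR adjusted p = 0.00148). Nqo2 moved by 0.18 ± 0.06 (edgeR adjusted p = 0.0121) and -0.88 ± 0.06 (edgeR adjusted p = 1.73e-10), and their counts, at most 2226 and 907 in a library, were below those of Serpinb6a, at 3761 to 9107.

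Serpinb1a, an inhibitor of the neutrophil proteases elastase, cathepsin G and proteinase 3, opens the cluster at chr13:32842092-32851185 on the minus strand (ENSMUSG00000044734.16). Its CPM were 11.9, 12.3 and 12.8 in the vehicle libraries, 5.68, 4.55 and 6.12 in those given genipin, 4.78, 6.90 and 6.27 in those given genipin+NAC and 4.69, 5.17 and 4.11 in those given NAC. All 9 treated libraries were below the 3 vehicle libraries, and the treated groups overlapped. The log2 fold change against vehicle was -1.17 ± 0.12 for genipin, -1.41 ± 0.13 for NAC and -1.04 ± 0.12 for both. The difference between genipin+NAC and NAC, 0.36 ± 0.14, lost its call in 6 of 20 other settings and ranged from 0.26 to 0.49. Leaving out genipin+NAC replicate 2 (0.26) or 3 (0.33) or NAC replicate 1 (0.37) or 3 (0.28) was enough.

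The clade B genes of this cluster thus gave unlike values within a short stretch of chromosome. Serpinb6b, Serpinb9 and Serpinb9b lie within 76.7 kb, and against vehicle NAC gave 0.37 ± 0.03, -0.35 ± 0.04 and -3.66 ± 0.08 in that order. Serpinb1b, a further clade B serpin of the cluster and not one of the 9, had 1.51 to 3.92 CPM and log2 fold changes of -0.60 ± 0.17 with genipin, -0.92 ± 0.18 with NAC and 0.03 ± 0.16 with both.

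**Figure D2:**
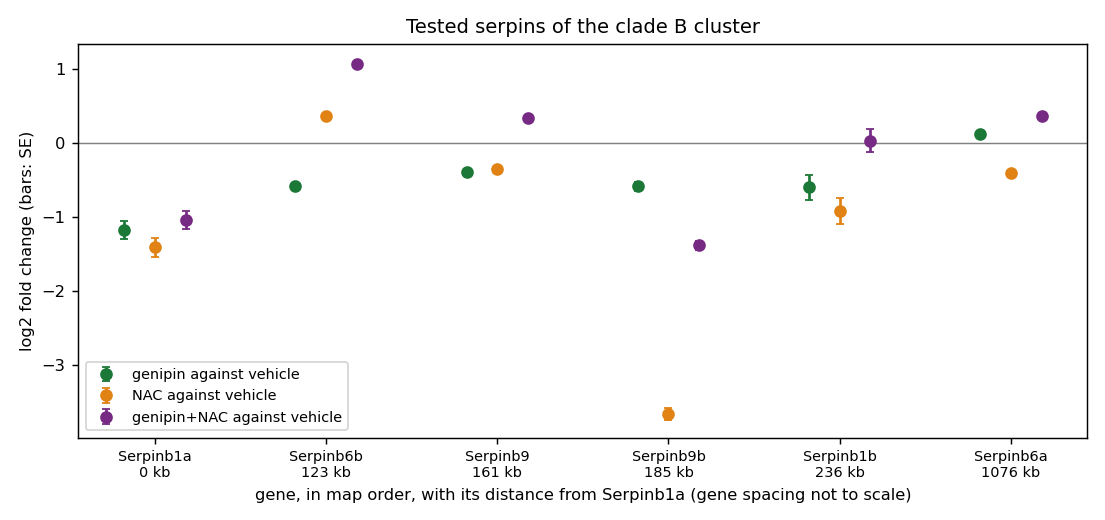
Log2 fold change against vehicle (bars, SE) of the 6 serpins of the chromosome 13 cluster that passed the filter on low counts, in map order, with their distance from Serpinb1a in kb. The NAC value of Serpinb9b, at -3.66, lies far below those of its neighbours Serpinb9 (-0.35) and Serpinb6b (0.37).

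Serpinc1 encodes antithrombin, which the liver secretes and which blocks thrombin and other clotting proteases. The gene (ENSMUSG00000026715.12) is at chr1:160978585-161005863, on the plus strand. In these T cells it was low, at 9.12, 10.0 and 8.28 CPM in the vehicle libraries, 0.966, 0.937 and 0.729 in those given genipin (20 to 25 counts), 5.29, 5.19 and 5.06 in those given genipin+NAC and 6.76, 6.61 and 5.82 in those given NAC. The groups did not overlap, and genipin alone stood far below the others. Genipin against vehicle gave -3.38 ± 0.15 on the log2 scale, a 10.4-fold difference, and genipin added to NAC gave -0.30 ± 0.11, a value that lost its call in 7 of 20 other settings and ranged from -0.46 to -0.26. Leaving out genipin+NAC replicate 2 (-0.30) or 3 (-0.29) or NAC replicate 1 (-0.26) or 2 (-0.27) ended it. Genipin+NAC was 5.90-fold above genipin, and the interaction was 3.08 ± 0.19. The 4 hepatocyte markers had 0 or 1 count in these libraries. The mean length RSEM assigned to Serpinc1 transcripts was 927 to 1442 bases per library, while the transcript with the whole antithrombin coding sequence (1398 bases) is 4970 bases long, so RSEM assigned most of them to shorter annotated forms. Its gene overlaps Zbtb37 on the other strand, which had 301 to 656 counts and moved the other way, by 0.76 ± 0.10 with genipin (edgeR adjusted p = 7.81e-07).

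Serpine2 encodes protease nexin-1, a secreted inhibitor of thrombin and plasminogen activators, at chr1:79794197-79861180 on the minus strand (ENSMUSG00000026249.10). It was abundant in every library, at 247, 243 and 252 CPM in the vehicle libraries, 315, 307 and 315 in those given genipin, 295, 307 and 307 in those given genipin+NAC and 229, 220.1 and 226 in those given NAC. Genipin-treated libraries were above vehicle and NAC libraries below, while genipin and genipin+NAC nearly touched. The log2 fold change against vehicle was 0.34 ± 0.03 for genipin, -0.14 ± 0.03 for NAC and 0.29 ± 0.03 for both. The interaction was 0.09 ± 0.04 and did not pass, and it changed to -0.05 with no normalization factors.

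**Figure D3:**
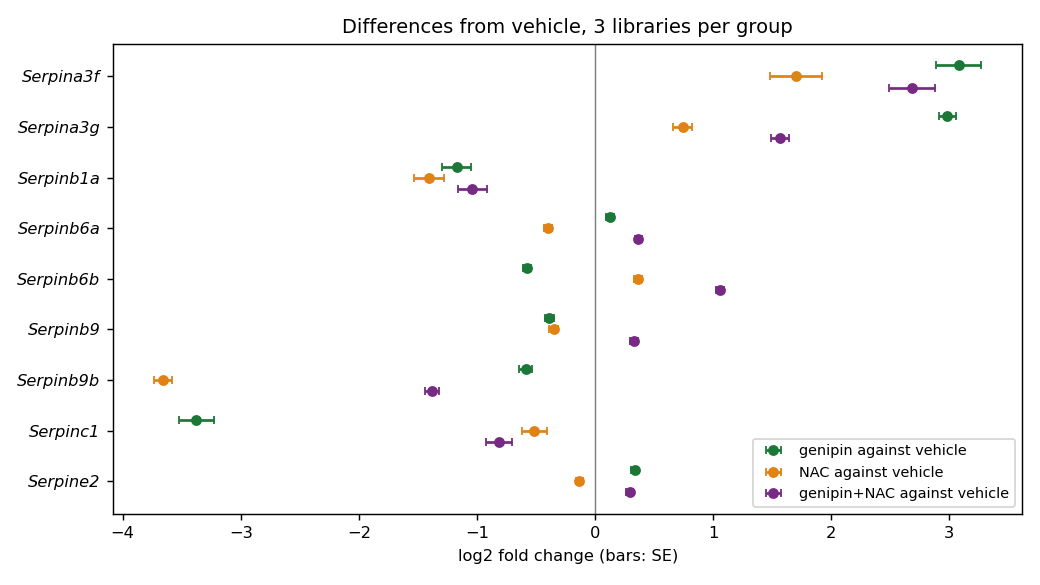
Log2 fold change of each serpin against vehicle, with SE, for genipin, NAC and both together (3 libraries per group). Serpina3f and Serpina3g lie to the right in all 3 comparisons, and the largest negative values are those of Serpinb9b with NAC (-3.66) and Serpinc1 with genipin (-3.38).

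Over the 9 serpins, genipin against vehicle had 4 called higher and 5 called lower at an edgeR adjusted p under 0.05, where 61% of all genes tested were called (29.9% higher, 31% lower). For NAC against vehicle the counts were 3 and 6, beside 59.7% of all genes (29.6% higher, 30% lower), and for genipin+NAC against vehicle 6 and 3, beside 57.4% (28.5% higher, 28.9% lower). Genipin+NAC against genipin had 4 higher and 3 lower, beside 69.3% (35% higher, 34.3% lower), and genipin+NAC against NAC 8 higher and 1 lower, beside 53.1% (26.6% higher, 26.5% lower). The interaction had 6 higher and 2 lower, beside 51.4% (27.4% higher, 24% lower). Since these comparisons chose the genes, nothing is read from the counts. The libraries of the 2 groups were fully separate for each of the 9 in the comparisons against vehicle. With genipin 4 were wholly above and 5 wholly below, beside 66.7% of all genes (33% above, 33.7% below), with NAC 3 and 6, beside 65.9% (32.7% above, 33.1% below), and with both 6 and 3, beside 60.7% (30.3% above, 30.4% below). For genipin+NAC the split was 4 above and 4 below against genipin, beside 70.2% (35.2% above, 35.1% below), and 7 above and 1 below against NAC, beside 56.7% (28.3% above, 28.4% below). The comparisons share libraries, so their values are set side by side only. Without normalization factors the share of calls that were higher went from 49.7% to 67.5% for NAC against vehicle, from 50.2% to 35.9% for genipin+NAC against NAC and from 53.3% to 35.3% for the interaction. The median of all genes then shifted by 0.12 and -0.144 on the log2 scale for NAC against vehicle and for the interaction. No serpin but Serpine2, in the interaction, changed sign.

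Genipin without and with NAC gave unequal values for most of these genes. Serpinb6b, Serpinb9 and Serpinb9b were lower with genipin alone and higher with genipin added to NAC, with no overlap of libraries in either comparison. Serpina3f and Serpina3g were higher in both, by less with NAC present. Serpinc1 was lower in both, also by less with NAC present.

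**Figure D4:**
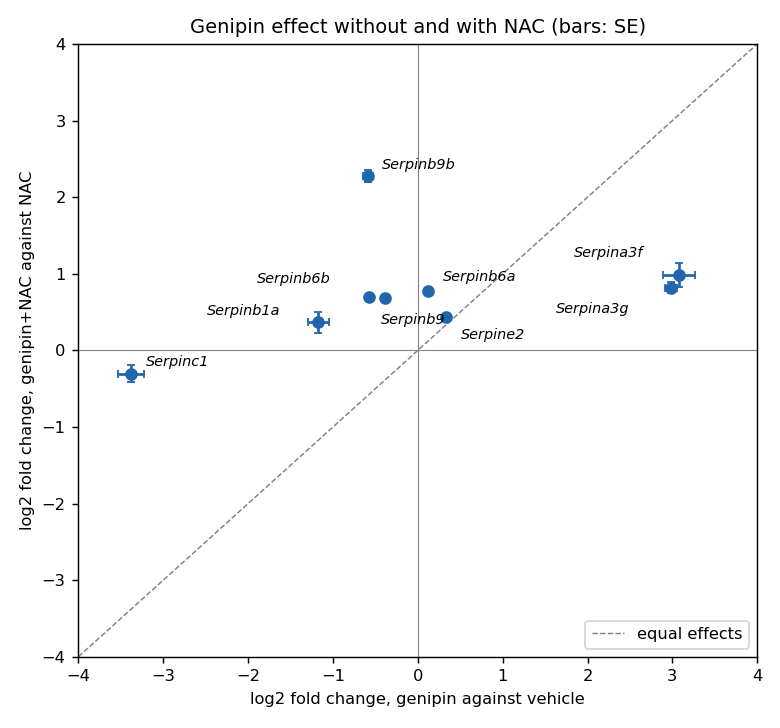
Log2 fold change of each serpin for genipin against vehicle (x) and for genipin+NAC against NAC (y), with SE and a dashed line of equal effects. Serpine2 lies nearest the line, Serpina3f and Serpina3g lie below it, and the other 6 above it.

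Per transcript length, 4 serpins made up most of the set. Serpinb6a, Serpinb6b, Serpinb9 and Serpine2 held 91.4 ± 0.51% of the summed serpin TPM with vehicle, 87.6 ± 0.38% with genipin, 95.5 ± 0.29% with genipin+NAC and 95.6 ± 0.37% with NAC (SD, n = 3). The sum over the 9 was 616 ± 10.4 TPM with vehicle, 678 ± 4.29 with genipin, 918 ± 34.2 with genipin+NAC and 641 ± 3.38 with NAC, so the libraries with both compounds held the most serpin transcript. The largest means within groups were Serpinb6a with vehicle (198 ± 4.90 TPM), Serpinb6a with genipin (233 ± 3.48 TPM), and Serpinb6b with genipin+NAC and with NAC (228 ± 4.01 TPM). Of the other 54 serpins, 4 passed the filter and 50 did not, the latter with at most 10 counts in any library and 33 of them at 0 throughout. Serpinf1, the secreted factor PEDF, was 3.58 ± 0.06 CPM with vehicle, 0.459 ± 0.052 with genipin, 1.41 ± 0.09 with genipin+NAC and 2.25 ± 0.85 with NAC (SD, n = 3). Serpini1, neuroserpin, ranged from 4.09 to 8.31 CPM over all libraries.

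The mean transcript length that RSEM assigned to each gene is a readout the choice of genes did not use. It was steady for Serpinb9, at 3397 to 3399 bases in all libraries, where the annotated transcripts are 3397 and 3472 bases long. For Serpinb9b it ranged from 2477 to 3253 bases, between a coding transcript of 3253 bases and a noncoding one of 725, and for Serpinb1a from 1222 to 1918. These ranges overlapped between groups, but not all serpins did so. Serpinb6a was at 1442 to 1457 bases with NAC, 1466 to 1490 with genipin+NAC, 1485 to 1505 with vehicle and 1509 to 1518 with genipin. For Serpinb6b the genipin range (1955 to 1973) lay above those of vehicle (1893 to 1953), NAC (1923 to 1952) and genipin+NAC (1917 to 1930). Serpina3f with genipin+NAC (2205 to 2248) lay above genipin (2154 to 2201) and NAC (2120 to 2196). Serpine2 with genipin (2182 to 2188) lay below genipin+NAC (2203 to 2207) and NAC (2191 to 2208). Such differences were not tested, and their share over all genes was not computed. Levels per length of genes with several transcripts depend also on how RSEM split reads among them.

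The proteases these serpins meet were measured in the same fit and are not among the 9 genes, but their lists too were drawn up with earlier results of these data known. Granzyme B (Gzmb), the target of Serpinb9, stood at 11320 ± 146 CPM with vehicle, 9198 ± 19.0 with genipin, 7201 ± 14.9 with genipin+NAC and 4540 ± 24.2 with NAC (SD, n = 3). It fell by 0.30 ± 0.02 on the log2 scale with genipin (edgeR adjusted p = 1.03e-10) and by 1.32 ± 0.02 with NAC (edgeR adjusted p = 1.72e-21). Granzyme A (Gzma), a trypsin-like killer protease, gave 978, 936 and 981 CPM in the vehicle libraries, 1678, 1643 and 1626 in those given genipin, 255, 234 and 239 in those given genipin+NAC and 122, 125 and 121 in those given NAC. It rose by 0.77 ± 0.03 with genipin (edgeR adjusted p = 5.71e-15) and fell by 2.97 ± 0.03 with NAC (edgeR adjusted p = 3.56e-24). Transcripts of the protease per transcript of its inhibitor, in TPM, were 137 ± 1.27 for Gzmb over Serpinb9 with vehicle, 145 ± 4.55 with genipin, 69.5 ± 3.49 with genipin+NAC and 70.1 ± 0.51 with NAC. For Gzma over Serpinb6b the same ratio was 10.2 ± 0.24, 26.7 ± 0.33, 1.24 ± 0.02 and 1.02 ± 0.01 in that order. Both ratios were highest with genipin and lowest where NAC was present, and since each has a serpin in it no test is given.

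**Figure D5:**
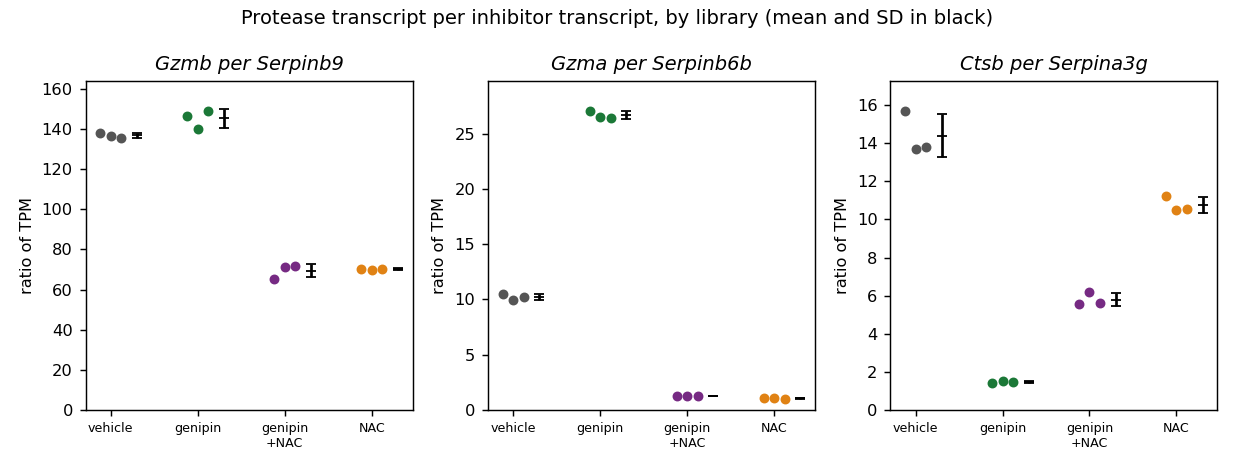
Ratio of protease to serpin transcript, each in TPM (linear axes from 0), in the 3 libraries of each group, with mean and SD in black. Gzmb per Serpinb9 was 136 to 149 without NAC and 65.5 to 71.8 with it, and Ctsb per Serpina3g was lowest with genipin (1.46).

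The wider list of granzymes and granule proteins (12 genes, all tested) had 6 higher and 3 lower with genipin, beside 29.9% and 31% of all genes tested, and 0 higher and 11 lower with NAC, beside 29.6% and 30%. The median log2 fold change with NAC was -2.35, against -0.0053 over all genes tested. Among the list's genes with a mean of at least 5 CPM, Gzma and Gzmf (0.65 ± 0.03, edgeR adjusted p = 7.85e-15) rose most with genipin, and Srgn, the proteoglycan that packs granules, fell by 0.25 ± 0.02 (edgeR adjusted p = 1.17e-08). With genipin+NAC against NAC 10 of 12 were higher and none lower by the same test, beside 26.6% and 26.5% of all genes. Gzmg (2.14 ± 0.03, edgeR adjusted p = 1.58e-21) and Gzmd (2.10 ± 0.03, edgeR adjusted p = 2.64e-22) had the largest rise there among those with a mean of at least 5 CPM, both of them genes of the granzyme B cluster. The summed granzyme level was 18484 ± 237 TPM with vehicle, 21143 ± 204 with genipin, 11559 ± 156 with genipin+NAC and 6323 ± 61.5 with NAC.

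Cathepsins are lysosomal proteases, and B and L are targets of Serpina3g. Ctsb was 239, 248 and 252 CPM in the vehicle libraries, 197, 198 and 199 in those given genipin, 270.0, 294 and 296 in those given genipin+NAC and 312, 295 and 299 in those given NAC. It fell by 0.31 ± 0.04 with genipin (edgeR adjusted p = 1.29e-07) and rose by 0.29 ± 0.03 with NAC (edgeR adjusted p = 2.86e-07). Per transcript of Serpina3g there were 14.4 ± 1.13 of Ctsb with vehicle, 1.46 ± 0.06 with genipin, 5.78 ± 0.33 with genipin+NAC and 10.8 ± 0.40 with NAC. Ctsl, low in these cells, rose by 1.73 ± 0.10 with NAC (edgeR adjusted p = 7.51e-12). Of the 20 genes of the cathepsin list 18 were tested, with 5 higher and 10 lower with genipin, beside 29.9% and 31% of all genes, and 5 higher and 8 lower with NAC, beside 29.6% and 30%. The median was -0.27 with genipin against -0.0079 for all genes. Ctsw, a cathepsin of cytotoxic cells, rose by 0.69 ± 0.03 with genipin (edgeR adjusted p = 1.99e-14), while Ctss fell by 0.76 ± 0.04 (edgeR adjusted p = 8.01e-13).

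Of the neutrophil enzymes that Serpinb1a blocks, 2 were at or near 0 and cathepsin G was detected. Elane had 0 counts in every library, which with 3 counts as the limit allows up to 0.138 CPM, and Prtn3 had at most 7. Ctsg, cathepsin G and a target of both Serpinb1a and Serpinb6a, stood at 8.72 ± 0.64 CPM with vehicle and 1.06 ± 0.25 with NAC (SD, n = 3), and fell by 1.09 ± 0.16 with genipin (edgeR adjusted p = 3.34e-06) and by 3.03 ± 0.19 with NAC (edgeR adjusted p = 1.77e-11). Thrombin (F2), the target of antithrombin and protease nexin-1, had 1 count at most in any library. Its receptor F2r, however, was expressed at 96.6 to 174 CPM and rose by 0.45 ± 0.03 with genipin (edgeR adjusted p = 8.19e-11), while it fell by 0.32 ± 0.03 with NAC (edgeR adjusted p = 2.53e-08). Lrp1, a receptor that clears serpin and protease complexes, stood at 29.0 ± 1.52 CPM with vehicle. It was at 2.86 ± 0.54 CPM with genipin, 4.43 ± 0.45 with genipin+NAC and 3.78 ± 0.64 with NAC. With genipin it fell by 3.34 ± 0.12 on the log2 scale (edgeR adjusted p = 9.18e-16). In the list of clotting, plasminogen and clearance genes 12 of 20 were tested, with 4 higher and 3 lower with genipin (median 0.02 on the log2 scale) and 3 higher and 4 lower with NAC (median -0.08), where 61% and 59.7% of all genes were called in either direction. Of 10 caspases, proteases of cell death and inflammation, 8 were tested, and 3 rose and 4 fell with genipin (median -0.09), beside 29.9% and 31% of all genes, Casp4 having a log2 fold change of -1.06 ± 0.09 (edgeR adjusted p = 3.34e-09).

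The genes whose log2 CPM followed a serpin most closely over the 12 libraries were found among 9458 genes with a mean of at least 5 CPM. These are descriptions over 12 libraries that fall into 4 groups of 3, share their group's treatment, and so rest largely on the 4 group means. Serpinb9b was most like Bcl2a1b (Pearson r = 0.998), a survival gene of the Bcl2 family, then Glrx (0.994) and Podnl1 (0.994). Serpina3g was most like Serinc3 (0.994), Ppm1h (0.988) and Cd63 (0.986), a membrane protein of lysosomes and granules. Serpinc1 was most like Neb (0.993), Hmgcs1 (0.993), an enzyme of cholesterol synthesis, and Vps16 (0.993). Serpinb9 was most like Rab37 (0.993), Bnip3l (0.989), a mitophagy receptor, and Cd84 (0.987). Serpinb6b was most like Kdm5b, Ppp1r3b and Ifngr1 (0.993 to 0.996), and Serpinb6a most like Eif2ak3, AW112010 and Vsir (0.983 to 0.990). Serpinb1a had Hsd17b10 (0.982), Eif3i (0.980) and Nt5c (0.965). Serpine2 was most like F2r (0.985), the thrombin receptor named above, then Lax1 (0.981) and Tbx21 (0.980), the T-bet factor of effector T cells. Serpina3f, with a mean below 5 CPM, was left out of this comparison.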

How the data were processed

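Per the labels' protocols, 12 libraries (4 groups of 3) came from a total RNA kit that keeps strand and removes ribosomal RNA, and were read as pairs. The submitters' processing notes name RSEM 1.3.1, STAR 2.7.0f, cutadapt 1.18, bcl2fastq and mm10, without their roles. The authors deposited 1 RSEM gene table per library. Per the file headers it holds expected counts (estimated counts that need not be whole), TPM and lengths in bases. FPKM, also made by the authors' RSEM run per the file headers, were not used. Gene IDs of all 55450 rows matched the mouse GENCODE release M21, which gave the coordinates. Promoter windows are RefSeq's. The deposited length is, by RSEM's definition, each gene's mean over its transcripts weighted by their share.

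Deposited expected counts were rounded and tested with the quasi-likelihood test of edgeR 4.0.16 (R 4.3.3), TMM factors, filterByExpr and 1 mean per group over all 12 libraries. Adjusted p values are Benjamini-Hochberg over 13636 genes, called under 0.05. SE are the log2 fold change over the root of F. CPM were computed from these counts over library totals scaled by the TMM factors; deposited TPM served for levels per length and ratios. A gene at 0 is limited by 3 counts, 0.098 to 0.138 CPM, which covers counting error only. The members, lists and tests were chosen with earlier results of these data known. The members, other serpins, known protease partners, up to 2 list genes per direction and comparison (called, at least 5 CPM) and the 3 genes most like each member could be named. Single results of some genes are left out of the text, and those genes stay in the counts. Steps were tested on simulated data. Alternatives were RLE factors, none, DESeq2 1.42.0, no filter, a mean of 5 CPM, effective length offsets, only the groups compared, a replicate block and each library left out. Figures used matplotlib 3.10.9.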

Additional observations from a re-analysis of the deposited data

Results flagged for a closer look

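Genipin went with opposite directions without and with NAC for Serpinb6b, Serpinb9 and Serpinb9b, each lower in every genipin library than in every vehicle library and higher in every genipin+NAC library than in every NAC library. The difference between the 2 genipin effects was 1.27, 1.07 and 2.86 on the log2 scale in that order, and it was not tested, because these serpins were set apart with the same comparisons in view. For Serpinb1b, not one of the 9, the interaction was 1.55 (edgeR adjusted p = 1.7e-05).

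Among the proteases and related genes the difference was likewise tested as the interaction, with edgeR adjusted p given after each value. The granzymes gave 2.35 for Gzmg (5.02e-20), 1.76 for Gzmd (3.99e-19), 0.96 for Gzmb (1.55e-16) and 0.21 for Gzma (0.000581). In the cathepsin list Ctsg gave 1.65 (5.73e-05), Cst3, an inhibitor of cathepsins, 0.79 (2.1e-08), Cstb, another, 0.64 (2.04e-07) and Ctsb 0.24 (0.00036). Ctsl gave -0.47 (0.0179) and Ctse -0.18 (0.0295). The caspases gave 0.91 for Casp4 (5.66e-06), 0.73 for Casp6 (6.88e-06) and -0.58 for Casp2 (1.91e-07). Lrp1, a clearance receptor, gave 3.58 (7.3e-13), the largest value of the genes named here. Some list genes with a mean under 5 CPM, not named, gave larger values. The thrombin receptor family members F2rl2 and F2rl3 gave 0.83 (1.07e-06) and -0.75 (0.000385), and the membrane protease St14 -0.89 (9.6e-09). The interaction was called for 51.4% of all genes tested.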

How the results depend on the processing

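The number of genes called stayed within 1.5 times the reported one in all 119 alternative fits of the 6 comparisons. The serpins were chosen with these comparisons in view, so the calls they keep are no support for them. Of 1065 serpin values under other settings, 1045 kept their side of the threshold, 16 lost the call, 4 gained one and none of the called ones changed sign. Among those not called 2 changed sign, Serpine2 in the interaction (-0.051 with no normalization factors) and Serpinb1a between genipin+NAC and genipin (-0.012 with effective length offsets). The calls lost were those of Serpinb1a and Serpinc1 between genipin+NAC and NAC, of Serpina3f between genipin+NAC and genipin, and of Serpine2 for NAC against vehicle, which was -0.016 with no normalization factors. Serpine2 gained one between genipin+NAC and genipin with no normalization factors (-0.067) and in the interaction with a filter at a mean of 5 CPM and without genipin+NAC replicate 1 or NAC replicate 1 (0.11 each). Counts of list members called moved by more than 1.5 times in 30 of 714 values, none of them a count for the granzyme, cathepsin or caspase lists. For the clotting list with NAC the count went from 7 to 4 with a filter at a mean of 5 CPM, which tests fewer genes. No pairing by replicate number was seen: with group means taken out, same-numbered libraries correlated between -0.0773 and 0.0474 over 18 pairs. The best match of a library bore its own number for 5 of 12. Genes of low count weighed as much as others there, so pairing limited to some genes could be missed. With the replicate number as a block, genes called went from 8312 to 8246 for genipin against vehicle and from 8134 to 8050 for NAC against vehicle. Depth limits Serpina3f with vehicle and Serpinc1 with genipin, at 13 to 25 counts a library. The cause of these changes was not tested.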
